A study of Mus musculus with 8 samples.

Results

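Wnt ligand and cortical hem genes were examined for PRDM16 binding in the embryonic mouse cortex at E15.5. The 10 genes were Wnt7a, Wnt7b, Wnt5a, Wnt3a, Wnt8b, Wnt2b, Lmx1a, Otx2, Rspo2 and Rspo3, out of 21887 protein-coding genes in the RefSeq table. A peak was assigned to a gene when its summit lay in the gene body, or within 100 kb of the nearer gene end with no closer protein-coding gene. By this rule 38 of the 48145 peaks in the 4 lists belonged to these genes. They were 4 of 4553 peaks in cKO replicate 1, 3 of 3088 in cKO replicate 2, 10 of 13852 in WT replicate 1 and 21 of 26652 in WT replicate 2.

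PRDM16 binding was mapped by ChIP-seq, in which crosslinked chromatin is precipitated with an antibody and the recovered DNA is sequenced. The conditional knockout (cKO) embryos had the genotype Emx1Ires-Cre; Prdm16flox/flox, and the embryos called WT were Prdm16 flox/flox without Cre, so both genotypes carried floxed alleles. Cre from the Emx1 locus acts in the dorsal telencephalic lineage, and cells of other lineages in the lysate, such as interneurons and vessels, are not its target. Each genotype had 2 ChIP libraries of whole cortex lysate, and the labels do not give the number of embryos behind a library. The spread between 2 libraries may therefore be technical.

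PRDM16 belongs to the PR-domain family of zinc-finger transcription factors, and radial glia, the cortical stem cells, express it. Wnt proteins are secreted ligands that bind Frizzled receptors and the co-receptors Lrp5 and Lrp6, and in the canonical pathway they stabilise beta-catenin. The cortical hem is a signalling centre at the medial edge of the cortex that secretes Wnt and BMP ligands, directs formation of the hippocampus and produces Cajal-Retzius cells. In a whole-cortex lysate, strong binding in a small domain such as the hem and weak binding in many cells cannot be told apart. Peak lists hold no expression values, so neither the tissue label nor the loss of Prdm16 could be checked with marker genes.

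Among the promoters of the 10 genes, the data bear on that of Wnt7a, so its sequence is shown. It is the RefSeq promoter on the minus strand at chr6:91411304-91411603 (GRCm38.p6, the mm10 assembly), from 250 bases before to 50 after the transcription start. Capitals mark the 58 bases that lie under a WT replicate 2 peak.
Wnt7a promoter: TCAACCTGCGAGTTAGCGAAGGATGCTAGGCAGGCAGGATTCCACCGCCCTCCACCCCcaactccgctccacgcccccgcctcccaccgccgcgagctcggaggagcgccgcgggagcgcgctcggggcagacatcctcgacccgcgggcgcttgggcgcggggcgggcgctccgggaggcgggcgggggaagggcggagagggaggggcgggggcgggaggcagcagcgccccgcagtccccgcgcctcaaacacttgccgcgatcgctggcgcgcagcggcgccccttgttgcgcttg

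The window was 76.0% G and C, against a median of 52.7% over the 32851 promoters of the table. On either strand it held no CTTTGAT (TCF/LEF), no TTGGC followed by GCCAA after 5 free bases (nuclear factor I), no AGATA followed directly by AGATAA (EVI1/PRDM3 type) and no CAGNTG. Those letters occurred in 3.73%, 0.0365%, 0.0183% and 51.4% of all promoters. A CANNTG (E-box, which includes CAGNTG) began 3 bases after the start, outside the capitals, and 72.3% of all promoters held that motif. Of the 10 genes, 6 had entries in the promoter table, with 9 promoters in all. The other 8 promoters overlapped no peak of any list, among them 4 of Otx2 and 1 each of Wnt3a, Wnt8b, Wnt2b and Lmx1a. Over the whole table, 4.27% and 3.07% of promoters overlapped a peak in cKO replicates 1 and 2, and 3.33% and 6.56% in WT replicates 1 and 2.

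The cKO lists held fewer peaks than the WT lists over the whole genome, with a mean of 3820.5 ± 1036 in cKO and 20252 ± 9051 in WT (SD, n = 2 each; exact two-sided permutation p = 0.333). That is the smallest p that 2 libraries against 2 allow. The lists hold no read totals, so depth was read from the reads stacked at each summit, recovered from the fold and p-value. The lowest local background was 2.95 and 2.52 reads per base in cKO replicates 1 and 2 and 0.777 and 1.78 in WT replicates 1 and 2. The smallest fold that passed each library's threshold at its median background, called its detection limit below, was 3.18 and 3.30 in the cKO replicates and 3.53 and 3.01 in the WT replicates. This limit is no floor, since a lower fold can pass where the local background is higher. Peak names of the WT lists carry a common library number and those of the cKO lists a different one, and no label explains it. Genotype and any batch that it marks cannot be told apart.

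With the full lists, most sites at Wnt and hem genes were called in WT only. Joining overlapping peaks gave 26 sites at 8 of the 10 genes. Of these, 3 were called only in cKO, 2 in both genotypes and 21 only in WT. The share of such sites over the whole genome is not given here, and the WT lists were longer throughout. The 10 genes held 0.0879% and 0.0972% of the peaks in cKO replicates 1 and 2. In WT replicates 1 and 2 they held 0.0722% and 0.0788%. Of the 21, 7 were found in both WT lists and 14 in a WT list alone. The 7 are called WT-only regions, meaning a region of both WT lists that neither cKO list overlapped. They lay at 6 of the 10 genes: Wnt7a with 2, and Wnt7b, Wnt5a, Wnt8b, Lmx1a and Otx2 with 1 each.

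A WT-only region was present at 16.6% of all protein-coding genes, and a region of both WT lists at 18.3%. Of all 10090 regions of both WT lists, 91.5% were WT-only, and at these genes 7 of 8 were. Rspo2 and Wnt2b had no peak in any list, as had 56.1% of all genes. Without WT replicate 1, which leaves the longer WT list alone, there were 19 WT-only regions at 8 of the genes, and the share of all genes was then 32.2%. With every list cut to the 3088 strongest peaks by p-value, the 10 genes had 4 and 3 peaks in cKO replicates 1 and 2 and 4 and 3 in WT replicates 1 and 2, with 2 WT-only regions at 2 of the genes.

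**Figure D1:**
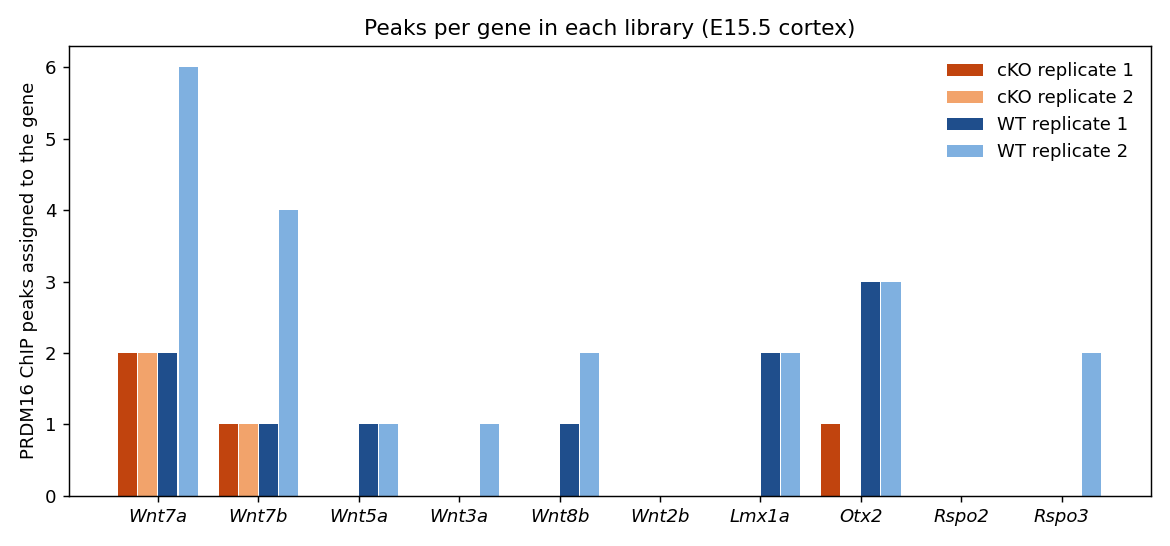
Number of PRDM16 ChIP peaks (vertical axis) assigned to each of the 10 genes (horizontal axis), with a bar for each of the 4 libraries. Lmx1a, Otx2, Wnt5a and Wnt8b had more peaks in both WT lists than in either cKO list, Wnt7a reached 6 peaks in WT replicate 2, and Wnt2b and Rspo2 had none.

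With the full lists, peak numbers per gene did not overlap between the genotypes at 4 of the 10 genes. Lmx1a had 0 and 0 peaks in the cKO replicates and 2 and 2 in the WT replicates. Otx2 had 1 and 0 in cKO and 3 and 3 in WT, Wnt5a 0 and 0 in cKO and 1 and 1 in WT, and Wnt8b 0 and 0 in cKO and 1 and 2 in WT. At these 4 genes both WT libraries lay above both cKO libraries, as at 15.7% of all protein-coding genes. The opposite order was found at 0 of the 10 genes and at 1.7% of all genes. Each of the 4 had an exact two-sided permutation p of 0.333, the smallest possible, and an adjusted p of 1 over all 21887 genes, of which 0 reached an unadjusted 0.05. With lists of equal length, the difference of cKO minus WT in mean peak number was 0 at Wnt5a and −0.5 at Lmx1a, where the groups then overlapped, and −1.5 at Otx2 and −1 at Wnt8b. It was 0 at Otx2 within 10 kb, and 0 at Otx2 and Wnt8b in gene bodies only.

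The Wnt7 ligands carried 13 of the 26 sites, with 7 at Wnt7a and 6 at Wnt7b. Wnt7a and Wnt7b encode closely related ligands of cortical progenitors and neurons that also guide growth of brain blood vessels. Peak numbers at Wnt7a were 2 and 2 in the cKO replicates and 2 and 6 in the WT replicates, so the groups overlapped. With lists of equal length, the difference of cKO minus WT in mean peak number turned to 2, against −2 with the full lists. Of the 7 Wnt7a sites, 1 was called in both genotypes.

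Wnt7a lies on the minus strand at chr6:91363981-91411353, and both of its WT-only regions lay past its 3′ end. The nearer, at chr6:91347877-91348203, had folds of 6.80 and 8.44 in WT replicates 1 and 2 from 12 and 31 stacked reads, and no peak in either cKO list. Its summits lay 15911 and 15943 bp beyond the gene. The farther, at chr6:91345533-91346333, had folds of 4.77 and 7.52 in the WT replicates from 9 and 31 reads, and again no cKO peak. Summits of the WT replicates were 32 bp apart in the nearer region and 15 bp apart in the farther. Fold enrichments here and below are the authors' values at the summit over local background.

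A further Wnt7a site was called in cKO alone. At chr6:91359715-91359952, 4120 and 4171 bp past the 3′ end, cKO replicates 1 and 2 had folds of 4.45 and 5.54 from 20 and 24 reads, and neither WT list held a peak. A region of both cKO lists that neither WT list overlapped was present at 3.43% of all genes. The WT detection limits of 3.53 and 3.01 were below both cKO folds. Among the sites of the 10 genes it was the one held by both cKO lists and by no WT list.

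The other Wnt7a site called in cKO lay just upstream of the start, next to the promoter shown above. At chr6:91411546-91412018, the folds were 5.72 and 5.23 in cKO replicates 1 and 2 and 6.07 in WT replicate 2, and WT replicate 1 had no peak. The stacked reads were 26 and 18 in the cKO replicates and 22 in WT replicate 2. The cKO summits lay 536 and 520 bp and the WT summit 302 bp upstream of the start. All 3 summits fell inside the lncRNA gene Gm30437, which is annotated on the opposite strand at chr6:91411328-91412716. The cKO peaks began at 91411797 and 91411787, so they did not reach the promoter window, and the WT peak overlapped its first 58 bases. Wnt7a was thus the gene among the 10 with a region of both cKO lists, as were 6.83% of all genes.

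Inside Wnt7a, WT replicate 2 had 3 more peaks, with folds of 4.93, 5.59 and 3.97 at 31788, 9502 and 460 bp downstream of the start. No other list held them, and the reads behind them were 15, 15 and 11. Their 95% Poisson intervals, which cover counting error only, ran from 8.40 to 24.7 reads for 15 and from 5.49 to 19.7 for 11.

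Wnt7b, at chr15:85535437-85581821, had all of its sites past the end with the higher coordinate, and the cKO and WT peaks there did not meet. Peak numbers were 1 and 1 in the cKO replicates and 1 and 4 in the WT replicates, so the groups overlapped. The difference of cKO minus WT in mean peak number, −1.5, turned to 1 with lists of equal length and to 0.5 within 10 kb. The cKO replicate 1 peak lay 17286 bp outside the gene with a fold of 4.68, and the cKO replicate 2 peak 1880 bp outside with 3.08, inside the lncRNA gene AU022754. Each was called in that list alone, with 21 reads in each case. The 3.08-fold peak lay over a local background of 6.14 reads per base and was below the detection limits of both cKO libraries.

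Of the 5 WT peaks of Wnt7b, 4 lay between 71339 and 74059 bp from the gene. At chr15:85653078-85653372 the WT replicates had folds of 5.39 and 5.64 from 13 and 22 reads, with summits 47 bp apart and 71386 and 71339 bp outside the gene. WT replicate 2 alone had peaks of 8.53 and 6.01 at 72343 and 74059 bp, from 26 and 19 reads. These 3 sites lay within 3 kb of each other, and the next protein-coding gene, Ppara, was 79030 bp or more away. A weaker WT replicate 2 peak of 3.86 lay 32018 bp outside. Within 100 kb of Wnt7b on either side, 1 and 0 further peaks in the cKO replicates and 4 and 13 in the WT replicates lay nearer to another gene.

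Wnt8b had the strongest site among the ligands. Wnt8b is a ligand of the hem and the dorsomedial cortex. Its WT-only region, at chr19:44514408-44515421, had folds of 9.81 and 16.5 in WT replicates 1 and 2, from 20 and 54 reads, and no peak in either cKO list. The summits lay 862 and 509 bp past the 3′ end of Wnt8b, which runs on the plus strand at chr19:44493472-44514273. Sec31b, a secretory coat gene on the minus strand, ends 1822 and 2175 bp beyond them, so the region sits between 2 genes that converge on it. At 1014 bp it was the longest region of the 10 genes, and its summits, 353 bp apart, were the least aligned. WT replicate 2 alone had a second peak 19092 bp upstream of the Wnt8b start with a fold of 6.11.

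Wnt5a, which acts mainly through non-canonical Wnt signalling, had a WT-only region in its body at chr14:28514149-28514418. The WT replicates had folds of 5.34 and 5.30 from 9 and 14 reads, and neither cKO list held a peak. This was the weakest region of both WT lists at the 10 genes, and 15.2% of all such regions had a lower mean fold. Wnt3a, the hem ligand needed for growth of the hippocampus, had a peak in WT replicate 2 alone, in the gene body 7680 bp downstream of the start, with a fold of 6.83 from 18 reads. Wnt2b, another hem ligand, had no assigned peak. Within 100 kb of Wnt2b, 1 and 0 peaks in the cKO replicates and 2 and 1 in the WT replicates lay nearer to another gene.

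**Figure D2:**
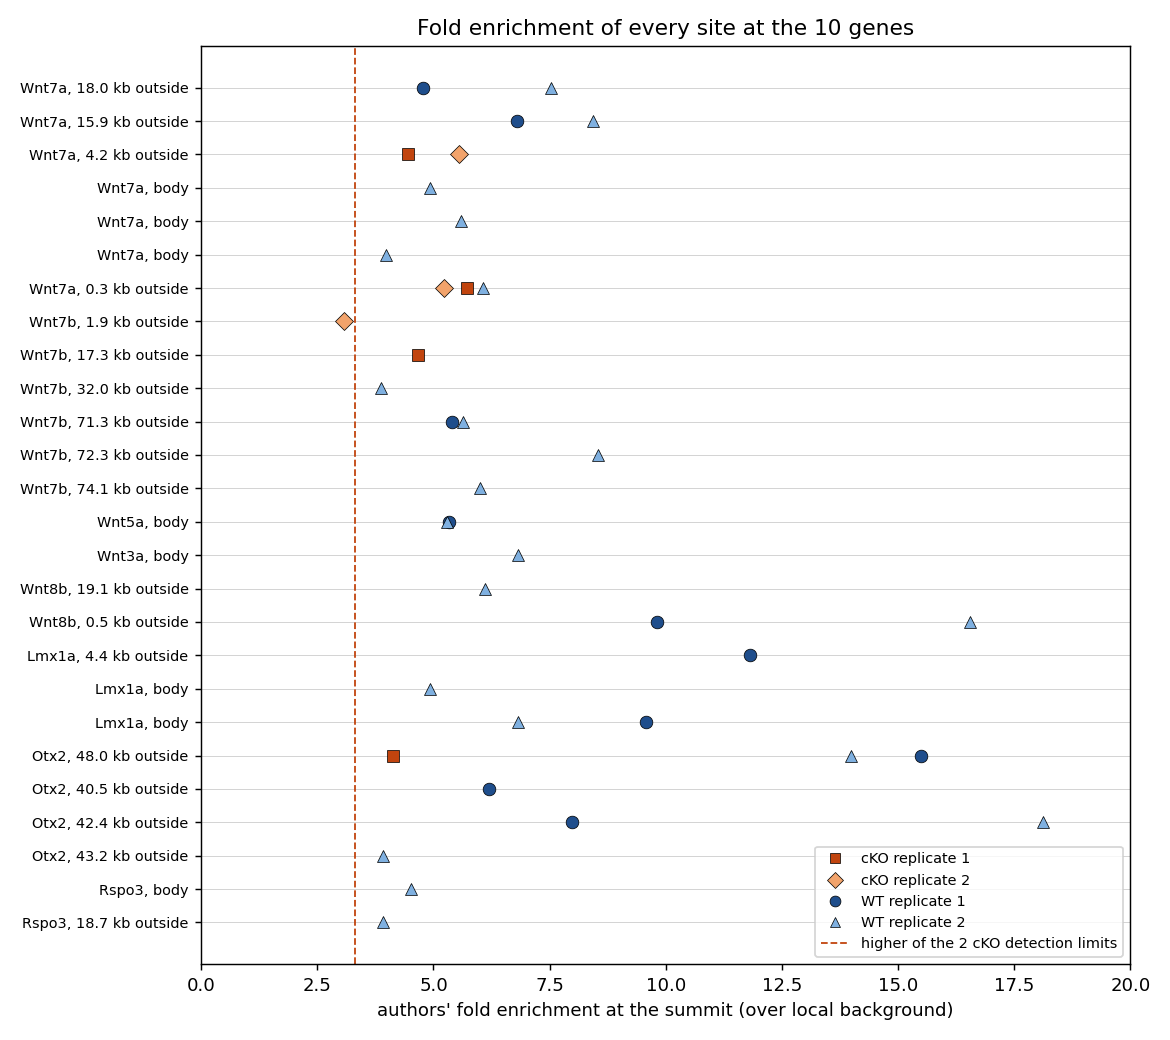
Authors' fold enrichment at the summit (horizontal axis) of each of the 26 sites (rows, named by gene and place), with a marker for each library that called it and a dashed line at 3.30, the higher of the cKO detection limits. The cKO markers sit between 3.08 and 5.72, and the WT markers reach 18.1 at Otx2.

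Among transcription factor genes, Otx2 had the highest folds of the 10 genes. Otx2 encodes a homeobox factor of the dorsal midline that is needed to form the choroid plexus, and it lies on the minus strand at chr14:48656781-48667644. Its 4 sites were all more than 40 kb from the gene, 1 past the 3′ end and 3 upstream. Peak numbers were 1 and 0 in the cKO replicates and 3 and 3 in the WT replicates, so the groups did not overlap.

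The downstream Otx2 site, at chr14:48608283-48608914, was the region of both WT lists at these genes that a cKO list also held. Its fold was 4.13 in cKO replicate 1, from 21 reads, with no peak in cKO replicate 2, and 15.5005 and 13.9845 in WT replicates 1 and 2, from 28 and 52 reads. The cKO summit lay 7 and 56 bp from the WT summits. Local background there was 4.32 reads per base in cKO replicate 1 and 0.871 and 2.79 in the WT replicates. Over the genome, 3.22% of genes had a region of both WT lists that a cKO list held. By distance this site was near the boundary of the rule, since its summit in WT replicate 1 lay 48032 bp from Otx2 and 48566 bp from Tmem260.

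The upstream WT-only region of Otx2, at chr14:48709449-48710244, had folds of 7.98 and 18.1 in WT replicates 1 and 2, from 27 and 53 reads, and no peak in either cKO list. The folds differed by more than the replicates of any other region at these genes, with a mean of 13.0 ± 7.17 (SD, n = 2), although the summits lay 10 bp apart. Local background was 2.51 and 1.98 reads per base in WT replicates 1 and 2. The summits lay 42396 and 42386 bp upstream of the start, inside the lncRNA genes Otx2os1 and Gm38660. Weaker peaks on either side of it, of 6.19 in WT replicate 1 and 3.91 in WT replicate 2, were each in that list alone.

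Lmx1a, a LIM-homeobox gene that marks the cortical hem, had 0 and 0 peaks in the cKO replicates and 2 and 2 in the WT replicates. It lies on the plus strand at chr1:167688230-167848741. Its WT-only region was in the gene body at chr1:167816704-167817483, with folds of 9.57 and 6.82 in WT replicates 1 and 2 from 16 and 28 reads, and summits 27 bp apart. The second peak differed between the WT lists. In WT replicate 1 it had the highest fold at the gene, 11.8 from 27 reads, 4355 bp before the end of the gene with the lower coordinate. WT replicate 2 had no peak there, and its detection limit was 3.01 at median background. WT replicate 2 instead had a body peak of 4.94 from 20 reads, at chr1:167803763-167804138, that WT replicate 1 did not hold.

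R-spondins are secreted proteins that raise the response to Wnt ligands through Lgr receptors and the ligases Rnf43 and Znrf3. Rspo3, at chr10:29453106-29535867, had 0 and 0 peaks in the cKO replicates and 0 and 2 in the WT replicates, so the groups overlapped. The WT replicate 2 peaks had folds of 4.51 in the gene body and 3.91 at 18684 bp outside, from 14 and 12 reads. Rspo2, at chr15:43020788-43171594, had no peak in any list, and none of the 4 lists held any peak within 100 kb of it.

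**Figure D3:**
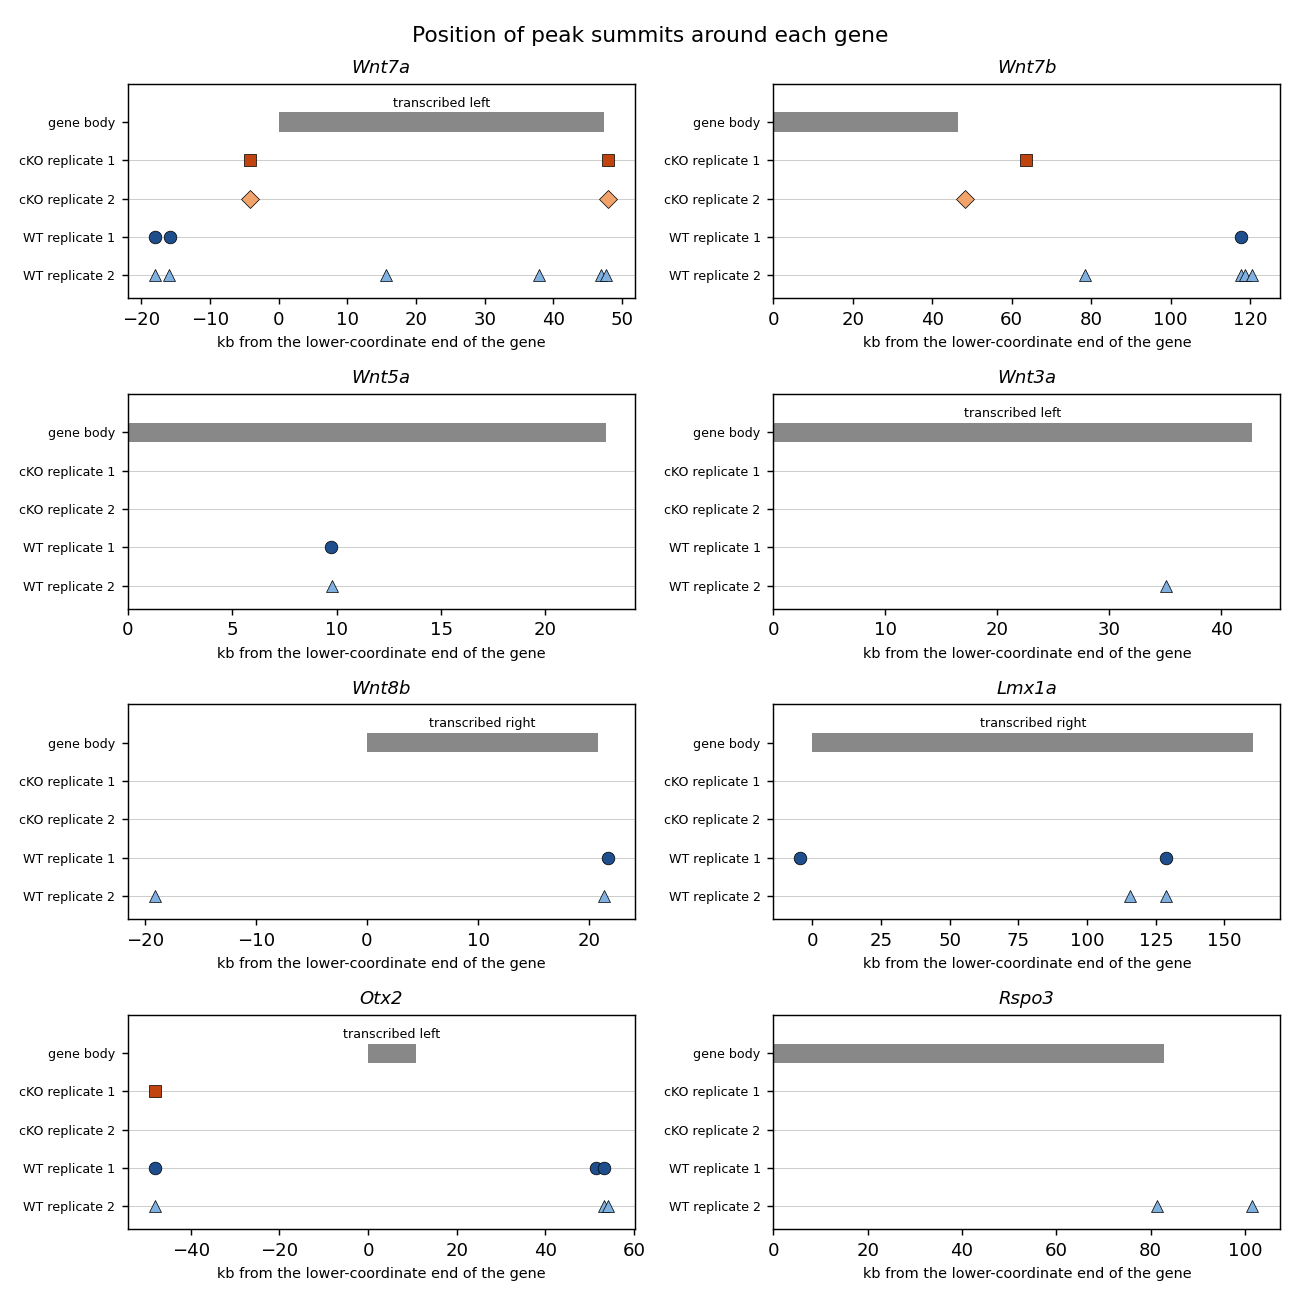
Position of peak summits, in kb from the lower-coordinate end of the gene (horizontal axis), around the 8 genes with a peak, with a row for each library and a grey bar for the gene body; the direction of transcription is written where the promoter table gives it. Summits of both WT lists lie close together past the 3′ ends of Wnt7a and Wnt8b and more than 40 kb from Otx2, and the cKO summits of Wnt7a lie at other positions near its ends.

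Sites at these genes were mostly outside gene bodies. Of the 26 sites, 18 lay outside and 8 in a body, and 13 were more than 10 kb from the gene. Of the WT-only regions 2 of 7 lay in a body, against 61.9% of all WT-only regions within 100 kb of a gene. Their median mean fold was 7.62, against 7.51 for all 9232 WT-only regions, and their median length 780 bp against 549 bp. By mean fold, the regions of both WT lists ran from Otx2 downstream (14.7 ± 1.07), Wnt8b (13.2 ± 4.76) and Otx2 upstream (13.0 ± 7.17) to Lmx1a (8.19 ± 1.95) and the nearer and farther Wnt7a regions (7.62 ± 1.16 and 6.14 ± 1.95; SD, n = 2 each). Wnt7b (5.51 ± 0.174) and Wnt5a (5.32 ± 0.0330) came last. The first 3 did not differ beyond their spread, nor did Lmx1a and the nearer Wnt7a region.

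The lower WT fold of all 8 regions was above both cKO detection limits at median background, from 1.44 times the higher limit at the farther Wnt7a region to 4.23 times at the downstream Otx2 region. The lower fold divided by 2 was still above them at 4 of the 7 WT-only regions, those of Lmx1a, Otx2 and Wnt8b and the nearer Wnt7a region, and at 45% of all WT-only regions. At the lowest background of the cKO libraries the limits were 3.29 and 3.41, and 2 of the 7, at Otx2 and Wnt8b, stayed above both. The lists do not give the cKO background at sites without a cKO peak, so the limit at each site is not known.

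**Figure D4:**
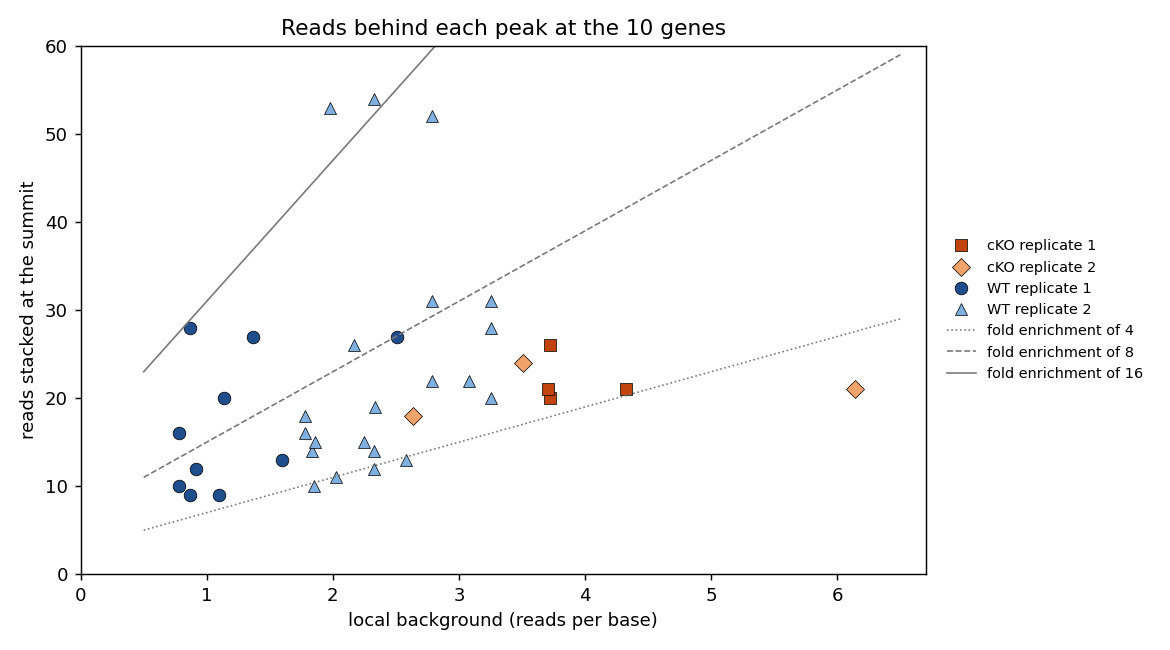
Reads stacked at the summit (vertical axis) against local background in reads per base (horizontal axis) for the 38 peaks at the 10 genes, by library, with grey lines at fold enrichments of 4, 8 and 16. The cKO peaks rest on 18 to 26 reads over backgrounds of 2.63 to 6.14, and the WT peaks on 9 to 54 reads over backgrounds of 0.777 to 3.25.

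Replicates of a genotype shared part of their peaks at these genes. In cKO, 2 of 4 in replicate 1 were also in replicate 2, and 2 of 3 in replicate 2 were also in replicate 1. In WT, 8 of 10 in replicate 1 were also in replicate 2, and 8 of 21 in replicate 2 were also in replicate 1. Over the whole lists the shares were 38.0% and 56.3% in cKO replicates 1 and 2, and 78.2% and 38.7% in WT replicates 1 and 2. The 13 peaks of WT replicate 2 that WT replicate 1 lacked had folds of 3.86 to 8.53. Each was above the limit of WT replicate 1 at median background, 3.53. At its lowest background that limit was 3.94, and the peaks of 3.86 at Wnt7b, 3.91 at Otx2 and 3.91 at Rspo3 were below it. Among the 13 was the peak of 6.07 just upstream of Wnt7a, which both cKO lists also overlapped.

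The other genes of the pathway were taken from fixed lists, chosen with earlier results of these data known. Over all genes, 16.6% had a WT-only region and 6.83% a region of both cKO lists. Of 13 other Wnt ligand genes, 4 had a WT-only region and 0 had a region of both cKO lists. None of the 13 had fewer peaks in both WT lists than in either cKO list, as had 1.7% of all genes. Wnt9a had 1 and 0 peaks in the cKO replicates and 0 and 0 in the WT replicates. The highest were Wnt1, a midbrain organiser ligand, at 9.19 ± 2.19 and Wnt2 at 8.56 ± 0.960 (SD, n = 2). Of 18 genes of Wnt secretion, receptors and modulators, 7 had a WT-only region and 1 a region of both cKO lists, Ror2, a receptor for Wnt5a. Lgr4, a receptor for R-spondins, reached 15.2 and 11.6 in WT replicates 1 and 2. Wls, the carrier that brings Wnt proteins to the cell surface, reached 7.79 and 17.2. Wls had 1 and 0 peaks in the cKO replicates and 3 and 4 in the WT replicates. A region of both WT lists that a cKO list held was present at 2 of the 18, Wls and Ror2, and at 3.22% of all genes. Reck and Adgra2, which serve as co-receptors for Wnt7 ligands on vessels, had no peak in any list.

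Of 18 regulators of the hem and dorsal midline, 14 had a WT-only region, against 16.6% of all genes, and 5 a region of both cKO lists, against 6.83%. The highest were the homeobox genes Emx1, at 18.0 ± 5.86 (SD, n = 2) and 22263 bp outside the gene, and Emx2, at 13.4 ± 4.09 in its body. Gli3, a repressor of Hedgehog targets that is needed for the hem to form, had 0 and 0 peaks in the cKO replicates and 10 and 12 in the WT replicates. It was named after its values were seen. Axin2, a common target of canonical Wnt signalling, had 2 and 2 peaks in cKO and 4 and 5 in WT. Lef1, a nuclear effector, had 0 and 0 in cKO and 4 and 5 in WT. Other regulators did not separate: Bmp7 had 3 and 1 peaks in cKO and 1 and 2 in WT, and Msx1 1 and 1 against 0 and 1. Dmrta2 had 4 and 2 in cKO and 3 and 3 in WT, and Otx1 2 and 1 against 4 and 1. Bmp4 and Gdf7 had no peak in any list. Axin2 and Bmp7 had a region of both WT lists that a cKO list held, as had 3.22% of all genes. More peaks in both WT lists than in either cKO list were found at 4 of the 13 ligands, 8 of the 18 receptor genes and 12 of the 18 regulators, against 15.7% of all genes. The median number of WT-only regions per gene was 1 over the 10 genes and 0, 0 and 1.5 over these lists, against 0 over all genes.

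**Figure D5:**
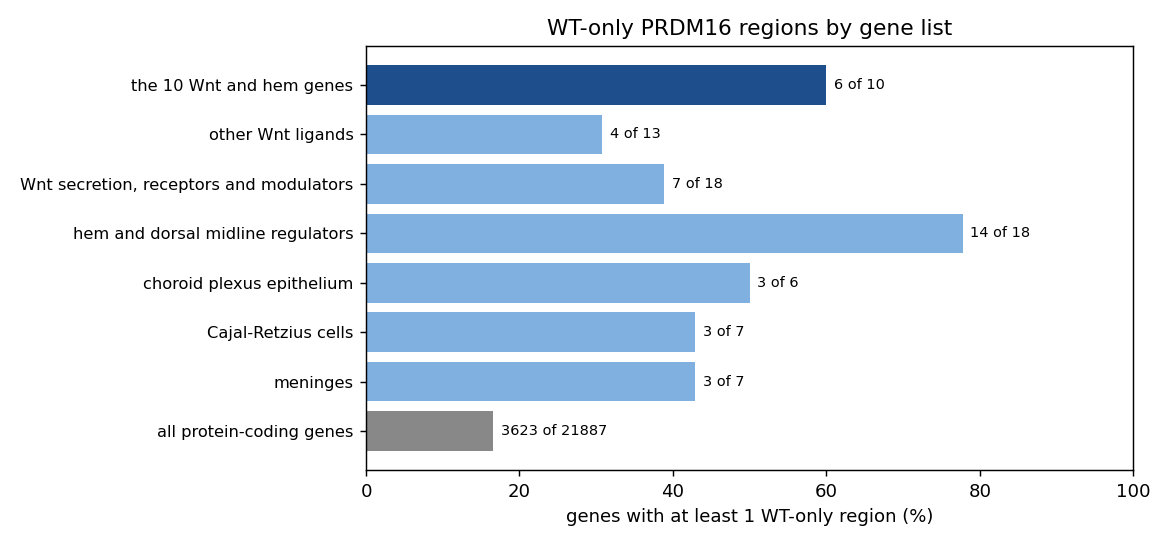
Percentage of genes with at least 1 WT-only region (horizontal axis) in the 10 Wnt and hem genes, 6 further lists and all protein-coding genes, with the counts beside each bar. The 10 genes stand at 6 of 10, the hem and dorsal midline regulators at 14 of 18 and all protein-coding genes at 3623 of 21887.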

How the data were processed

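Per the submitters' processing notes, FastQC, cutadapt, Bowtie2 2.2.8 and MACS2 2.1.1 were used on mm10; settings and control libraries are not given in the sources used here. Each deposited list covers a single ChIP library and gives, per peak, a fold enrichment (a ratio) and the −log10 of its p-value and of its q-value, at most 0.0491. Input libraries were not analysed here.

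Peaks off the assembled chromosomes were left out (12 to 37 lines per list). Coordinates count from 1. Gene positions and promoters came from RefSeq tables of GRCm38.p6; a genome sequence was not used here, so peaks were not searched for motifs. Lists were compared by overlap of at least 1 bp. A region of both WT lists joins overlapping peaks and is placed by its stronger summit; its fold averages the strongest peak of each list. Stacked reads and background were solved from the fold, (reads + 1)/(background + 1), and its Poisson p-value, with a tolerance of 0.0001 on −log10 p, for 99.86% to 99.96% of the summits tested. Peak numbers were compared with an exact two-sided permutation test over libraries, with Benjamini-Hochberg adjustment over all genes. The steps were tested on simulated data. Python 3.11.15, pandas 2.3.3 and scipy 1.17.1 were used.

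The genes and lists were chosen with earlier results of these data known. All 10 genes are named. Of each other list, the 2 genes with the highest mean fold of a WT-only region are named; further names in those lists were picked after their values were seen. The symbol Tiki1 was not in the table. Alternatives were an overlap of 50% of the shorter peak, a q-value of 0.001 or less, distances of 10 kb or the gene body only, lists of equal length, each library left out and a replicate block.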

Additional observations from a re-analysis of the deposited data

How the results depend on the processing

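Counts at the 10 genes depended mostly on the distance allowed and on the length of the lists. With 10 kb in place of 100 kb, the genes had 2 and 3 peaks in cKO replicates 1 and 2. WT replicates 1 and 2 had 4 and 10, and the regions of both cKO lists stayed at 2. There were then 3 WT-only regions at 3 genes, 0 regions of both WT lists were in a cKO list, and 12.7% of all genes had a WT-only region. In gene bodies only, there were 0 and 0 peaks in the cKO replicates and 2 and 8 in the WT replicates, with 2 WT-only regions at 2 genes, 0 regions of both WT lists in a cKO list, 0 regions of both cKO lists, and 10.1% of all genes. With lists of equal length there were 4 and 3 peaks in cKO replicates 1 and 2 and 4 and 3 in WT replicates 1 and 2, 2 WT-only regions at 2 genes, and 4.99% of all genes. A q-value of 0.001 or less gave 15.99% of all genes. The cause was not tested, apart from the smaller number of peaks that each setting leaves by construction. An overlap of 50% of the shorter peak changed none of these counts by over 1.5 times.

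Leaving out each library gave 7 to 19 WT-only regions, 6 to 8 genes with such a region and 16.8% to 32.2% of all genes. With a library left out, each peak of the other list of that genotype was counted as a region. On that count, 0 to 2 WT regions were in a cKO list (0 without cKO replicate 1). Both cKO lists shared 2 regions. The 3 and 4 counted without cKO replicates 1 and 2 were peaks of a single list each. The difference of cKO minus WT in peak number turned at Wnt7a to 2 and at Wnt7b to 1 with lists of equal length, and at Wnt7b to 0.5 within 10 kb. With lists of equal length it was 0 at Wnt5a and −0.5 at Lmx1a (exact permutation p = 1 for both); within 10 kb it was 0 at Otx2, and in gene bodies 0 at Otx2 and Wnt8b. In the replicate block the difference of cKO minus WT was −16431.5 peaks per list and −2, −2.5, −1 and −1.5 peaks at Lmx1a, Otx2, Wnt5a and Wnt8b. With genotype exchanged within a replicate number, the exact permutation p was 0.5 for each, the smallest that 2 pairs allow. The labels do not say whether libraries with the same replicate number had anything else in common. The replicate deviations of WT and cKO had a correlation of 0.0192 over 9610 genes. With 2 libraries per genotype, that value cannot decide it. Depth limits what the lists can show: with 9 to 54 reads at a WT summit, absence from a list is not absence of binding.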

Other observations

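Genes of other cell types near the hem were described from fixed lists. Over all genes, 16.6% had a WT-only region and 6.83% a region of both cKO lists. Of 6 choroid plexus genes, 3 had a WT-only region and 0 a region of both cKO lists. The highest were Kl, with folds of 11.8 and 17.7 in WT replicates 1 and 2, and the chloride channel gene Clic6 with 9.01 and 5.51. Ttr, the thyroxine carrier that defines this epithelium, had 0 and 0 peaks in the cKO replicates and 1 and 1 in the WT replicates. Its folds in WT replicates 1 and 2 were 6.29 and 3.81. Kcne2 went the other way, with 1 and 0 peaks in cKO and 0 and 0 in WT. Folr1 and Aqp1 each had 1 peak, in WT replicate 2 alone. Of 7 Cajal-Retzius genes, 3 had a WT-only region and 1, Ebf3, a region of both cKO lists. The most peaks were at the chemokine receptor gene Cxcr4, with 0 and 0 in cKO and 5 and 13 in WT, and at Ebf3 with 1 and 1 in cKO and 3 and 7 in WT. Reln, which encodes the glycoprotein these cells secrete, had 1 and 0 peaks in cKO and 2 and 8 in WT. Beside its WT-only region, Reln had a region of both WT lists that a cKO list held, as had 3.22% of all genes. Trp73 had 1 and 0 peaks in cKO and 0 and 1 in WT, and Lhx5 1 and 0 against 0 and 2. Lhx1 had 1 peak in WT replicate 1 alone and Calb2 1 in WT replicate 2 alone. Of 7 meningeal genes, 3 had a WT-only region and 1, Col1a1, a region of both cKO lists. The highest WT-only regions were those of Dcn at 8.28 ± 0.484 and Aldh1a2 at 7.61 ± 1.18 (SD, n = 2).

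Just outside the distance rule, the nearest further peaks were at Otx2. Neither cKO list held a peak there, and WT replicates 1 and 2 had folds of 4.24 and 5.11 at 132167 and 132170 bp. The farthest peak inside the rule was that of Wnt7b at 74059 bp.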
